A study of Mus musculus with 9 samples.

Results

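The 8 genes described here are the glucocorticoid-responsive genes Sgk1, Tsc22d3, Fkbp5, Plin4, Errfi1 and Zbtb16 and the 2 receptors for corticosterone, Nr3c1 and Nr3c2. They were taken by gene name and are 8 of 33586 entries in a table of expression values from mouse brain. They were chosen by name with the FPKM values and differences of these same libraries in view and with no measured threshold on record, so that their levels are given as a description, without p-values, and counts of calls among them are no test. RNA sequencing covered 3 intervention, 3 experimental and 3 control libraries. The labels' protocols describe tissue next to a haematoma made by injecting collagenase, which digests the matrix around vessels. Whether this also describes the control libraries cannot be told from the labels used here. The title of the series names tetrahedral nucleic acid particles loaded with the neuronal microRNA miR-124 as the treatment. The labels used here do not give the strain, genotype, sex, age, dose, route or time of sampling, what each group received or whether the replicates are separate animals. The p-values of other genes therefore measure only the spread between these libraries, which may be technical.

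Glucocorticoids are steroid hormones of the adrenal gland, and the main one in mice is corticosterone. In the brain they bind the glucocorticoid receptor (Nr3c1) and the mineralocorticoid receptor (Nr3c2), which are held by heat shock protein complexes until the hormone binds and then act as transcription factors. Fkbp5, Tsc22d3, Sgk1, Zbtb16, Plin4 and Errfi1 are known to respond to the hormone, several of them in glia and vessels as well as in neurons, and each also responds to other signals.

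The promoters of these genes are shown first because the receptors bind an inverted repeat, AGAACA and TGTTCT separated by any 3 bases, and related words. That repeat was searched as the full word. The RefSeq promoter table (GRCm38.p6, the build named mm10), with 250 bases before and 50 after each gene start, held 14 windows for 6 of the 8 genes. Nr3c1 and Zbtb16 had no entry and were not searched. Sgk1 had more windows than any other of the 8 genes, and so more chances of a match. The full word was present in 3 of 32851 windows (0.00913%), and 1 of these belonged to Sgk1. It lay at chr10:21993701-21993715 on the plus strand, and its first base was 189 bases before 21993890, which is only 1 of several listed starts of Sgk1. Which start is used in this tissue is not known. In that window of 300 bases, chr10:21993640-21993939, capitals mark the full word and a separate single arm of it, TGTTCT.
Sgk1 start at 21993890: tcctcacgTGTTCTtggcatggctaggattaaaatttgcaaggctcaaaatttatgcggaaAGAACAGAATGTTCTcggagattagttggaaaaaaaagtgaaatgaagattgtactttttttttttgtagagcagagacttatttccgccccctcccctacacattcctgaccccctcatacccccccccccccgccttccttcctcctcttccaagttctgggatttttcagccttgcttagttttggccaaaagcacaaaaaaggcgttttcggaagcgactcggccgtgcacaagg

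The single arms of the repeat, AGAACA and its reverse complement TGTTCT, and its core, ACA and TGT separated by any 3 bases, are shorter and more common, and every full word also holds them. All were searched on both strands. An arm was in 19.0% of all windows and in 4 of the 14, which came from Sgk1 and Tsc22d3. The core was in 6.85% of all windows and in 2 of the 14, both of Sgk1. The matches outside the window above are set out here with 12 bases on either side and the match in capitals.
Sgk1 start at 21882184: aagggaatccgtTGTTCTgtgttttctgtg
Sgk1 start at 21978672: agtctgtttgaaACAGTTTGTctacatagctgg
Sgk1 start at 21992223: aaagtgggactcAGAACAgaaaggcaatag
Tsc22d3 start at 140600522: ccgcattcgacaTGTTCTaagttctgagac
The windows of Fkbp5, Plin4, Errfi1 and Nr3c2 held none of these words. Of the 24 other glucocorticoid-induced genes described further on, 21 had an entry in the promoter table, with 24 windows. Angptl4, Cebpd and Rasd1 had none and were not searched. Of the 21 genes, 0 held the full word, 3 the core and 2 an arm. Counted per gene over the whole promoter table, 0.0111% held the full word, 7.9% the core and 21.3% an arm. A match of letters is not evidence of binding, and enhancers farther away were not searched.

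The table gives fragments scaled to gene length and library size (FPKM), a unit per length, so that levels can be compared between genes. It holds no read counts, and the depth of each library is unknown. Between 13408 and 14260 entries per library reached 1 FPKM, and correlations between libraries of a group ran from 0.979 to 0.989 over the 14570 genes tested. A gene was tested if it reached 1 FPKM in at least 3 of the 9 libraries. All 8 genes passed, but Plin4 reached 1 FPKM in the 3 intervention libraries only, so that it passed through the group where it was high. Markers of neurons, astrocytes, oligodendrocytes, microglia and endothelium were all present. In this bulk tissue, fewer cells of a type and less RNA per cell cannot be told apart.

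Sgk1 encodes a serine and threonine kinase that regulates ion channels and transporters. It was the most abundant of the 8 genes in all 3 groups. Its level was 36.1, 31.1 and 42.0 FPKM in intervention libraries, 21.2, 21.3 and 23.2 FPKM in experimental libraries and 37.6, 31.6 and 30.3 FPKM in control libraries. All 3 experimental libraries lay under every library of the other groups, while intervention and control libraries overlapped. The experimental mean was 0.661 times the control mean, a difference of -0.57 ± 0.12 on the log2(FPKM + 1) scale (estimate ± SE, used for all differences that follow). The intervention mean was 1.66 times the experimental mean (0.70 ± 0.12) and 1.097 times the control mean (0.13 ± 0.12), and the last of these turned to -0.02 when values were rescaled to a fixed sum per library (TPM). Sgk1 lies on the plus strand of chromosome 10 at chr10:21882184-21999903 (mm10), with 13 annotated transcripts in GENCODE M21 (ENSMUSG00000019970.15), and the table does not tell them apart.

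**Figure D1:**
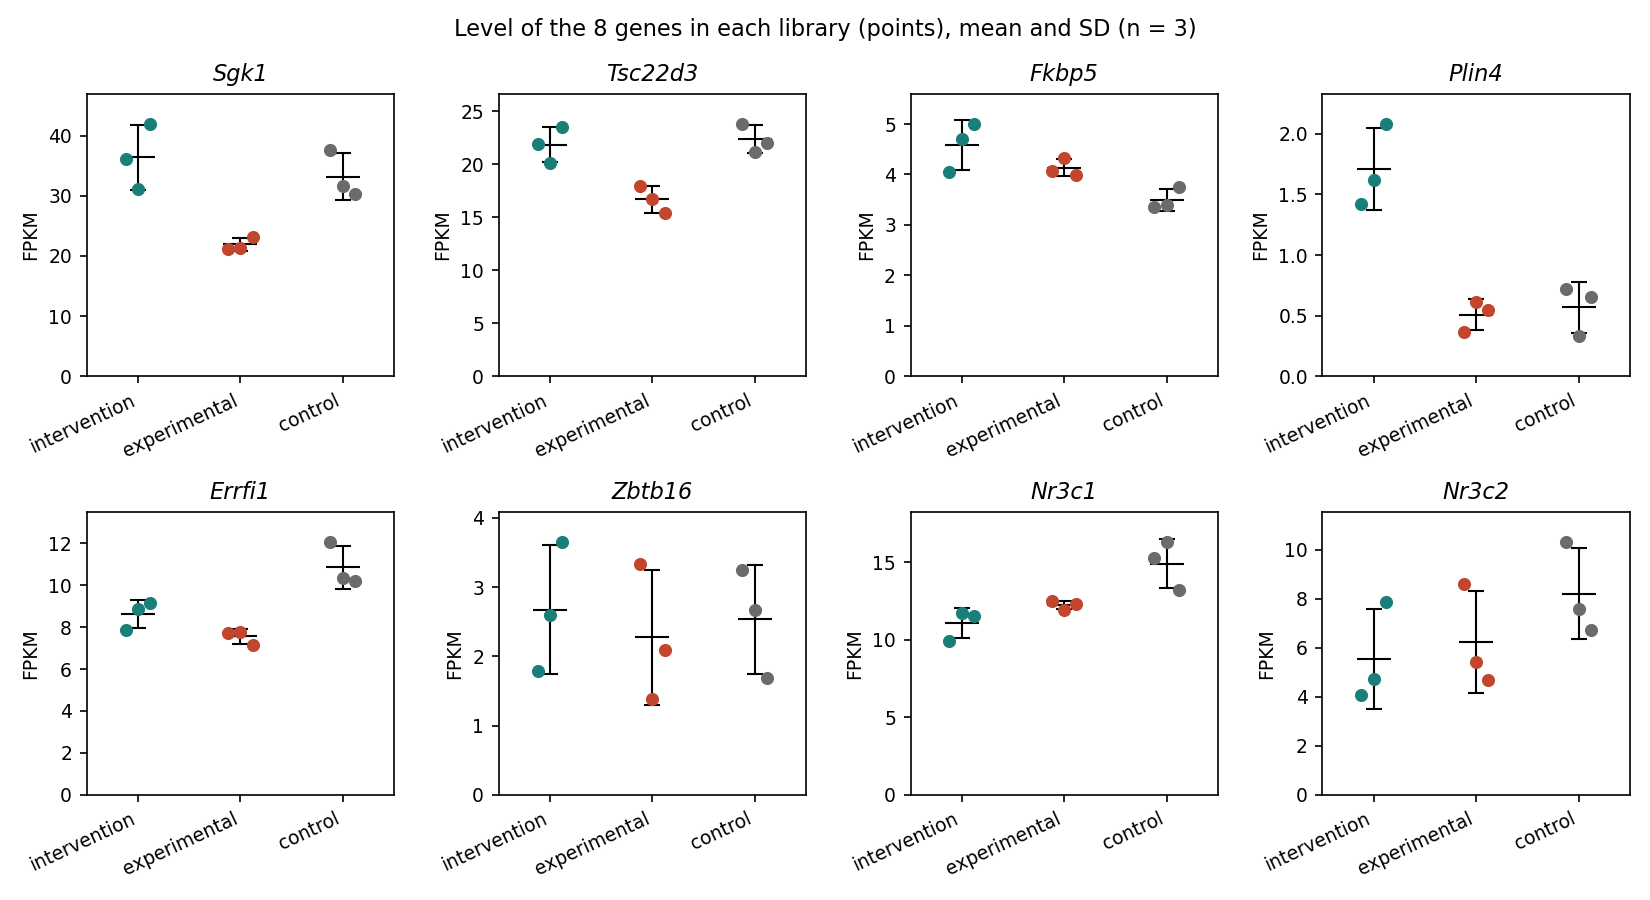
FPKM of each gene (vertical axis, from 0) in the intervention, experimental and control libraries, with a point per library and a bar for mean ± SD (n = 3). The 3 experimental libraries of Sgk1 lie between 21.2 and 23.2 FPKM, under all 6 others, and the 3 intervention libraries of Plin4 lie between 1.42 and 2.08 FPKM, above all others.

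Tsc22d3 encodes GILZ, a leucine zipper protein that mediates part of the anti-inflammatory action of glucocorticoids. It was at 21.9, 20.2 and 23.5 FPKM in intervention libraries, 18.0, 16.8 and 15.4 FPKM in experimental libraries and 23.8, 21.2 and 22.05 FPKM in control libraries. As for Sgk1, the experimental libraries were lowest and overlapped neither other group, while intervention and control libraries overlapped. The experimental mean was 0.747 times the control mean (-0.40 ± 0.09), the intervention mean 1.31 times the experimental mean (0.37 ± 0.09), and the intervention mean 0.978 times the control mean (-0.03 ± 0.09). The gene lies on the minus strand at chrX:140539528-140600659 (ENSMUSG00000031431.13).

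Fkbp5 encodes FKBP51, a co-chaperone that lowers the affinity of the glucocorticoid receptor for its hormone. It was at 4.04, 4.70 and 5.004 FPKM in intervention libraries, 4.08, 4.32 and 3.998 FPKM in experimental libraries and 3.35, 3.39 and 3.75 FPKM in control libraries. Here the control libraries were lowest in FPKM and overlapped neither other group. After rescaling to TPM they overlapped both other groups. The experimental mean was 1.18 times the control mean (0.19 ± 0.08) and the intervention mean 1.31 times (0.31 ± 0.08), while intervention and experimental libraries overlapped (0.12 ± 0.08). It lies on the minus strand at chr17:28399094-28517527 (ENSMUSG00000024222.17).

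Plin4 encodes perilipin 4, a protein that coats lipid droplets. It was at 1.42, 1.62 and 2.08 FPKM in intervention libraries, 0.365, 0.609 and 0.548 FPKM in experimental libraries and 0.719, 0.332 and 0.657 FPKM in control libraries. The intervention libraries stood above all 6 others, and experimental and control libraries overlapped. The intervention mean was 3.36 times the experimental mean (0.84 ± 0.14) and 3.00 times the control mean (0.79 ± 0.14), and the added 1 FPKM makes these log2 differences smaller than the ratios. Plin4 lies on the minus strand at chr17:56100591-56109803 (ENSMUSG00000002831.13) and shares 17 exon bases (0.294%) with Hdgfl2 on the opposite strand.

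Errfi1 encodes MIG6, an inhibitor of the epidermal growth factor receptor. It was at 7.86, 8.87 and 9.16 FPKM in intervention libraries, 7.72, 7.79 and 7.15 FPKM in experimental libraries and 12.04, 10.3 and 10.2 FPKM in control libraries. In FPKM no 2 groups overlapped, and the intervention libraries lay between the experimental and the control libraries. After rescaling to TPM, intervention and experimental libraries overlapped. The differences were -0.47 ± 0.08 for experimental minus control, 0.17 ± 0.08 for intervention minus experimental and -0.30 ± 0.08 for intervention minus control. Errfi1 lies on the plus strand at chr4:150853919-150868892 (ENSMUSG00000028967.10).

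Zbtb16 encodes PLZF, a zinc finger transcription factor. It was at 1.79, 2.59 and 3.65 FPKM in intervention libraries, 3.33, 1.39 and 2.10 FPKM in experimental libraries and 3.25, 2.67 and 1.69 FPKM in control libraries. All 3 groups overlapped, and the spread within a group (SD from 0.788 to 0.981 FPKM) was larger than any difference between group means. It lies on the minus strand at chr9:48654297-48836222 (ENSMUSG00000066687.5).

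Nr3c1, the glucocorticoid receptor, was at 9.95, 11.7 and 11.5 FPKM in intervention libraries, 12.5, 11.9 and 12.3 FPKM in experimental libraries and 15.3, 16.3 and 13.2 FPKM in control libraries. In FPKM the intervention libraries were lowest and the control libraries highest, with no overlap between any 2 groups. After rescaling to TPM, intervention and experimental libraries overlapped. The differences were -0.26 ± 0.09 for experimental minus control, -0.14 ± 0.09 for intervention minus experimental and -0.40 ± 0.09 for intervention minus control.

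Nr3c2, the mineralocorticoid receptor, was at 4.08, 4.71 and 7.88 FPKM in intervention libraries, 8.58, 5.43 and 4.68 FPKM in experimental libraries and 10.3, 7.58 and 6.74 FPKM in control libraries. In each group 1 library stood well above the other two, and the groups overlapped. The differences were -0.37 ± 0.25 for experimental minus control, -0.15 ± 0.25 for intervention minus experimental and -0.51 ± 0.25 for intervention minus control. Nr3c2 lies on the plus strand at chr8:76899442-77245012 (ENSMUSG00000031618.13). It shares 247 exon bases (3.82%) with Gm10649 on the opposite strand, which was at 0.112 to 0.464 FPKM, and the labels do not state whether strand was used in the counting.

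Counts of calls over the 8 genes are set beside those over all genes tested, and nothing is read from them because the genes were chosen with results known. In limma, with Benjamini-Hochberg adjustment and a threshold of 0.05, Sgk1, Tsc22d3, Errfi1 and Nr3c1 were lower in experimental than in control libraries and 0 were higher. Over all genes tested 17.3% were lower and 19.9% higher in that comparison, 37.2% in all. Nr3c1 passed narrowly and no longer passed when any of 7 libraries was left out (control 1 or 2, any experimental library, intervention 2 or 3), which then left 3 genes. At an unadjusted p under 0.05 Fkbp5 was also higher, against 23.4% of all genes higher and 46.7% in either direction. In FPKM, libraries did not overlap for 1 higher gene (25.7% of all genes) and 4 lower genes (25.5%), 51.1% of all genes in either direction. The higher gene, Fkbp5, overlapped after rescaling to TPM. After rescaling to TPM the median difference of all genes was -0.18 in that comparison, against -0.03 before, and -0.15 in intervention against control libraries, against -0.00348 before. The rescaling lowered the higher share of the calls to 31.8%, against 53.4%, and to 32.0%, against 59.7%. In intervention against experimental libraries 0 of the 8 and 0 of all 14570 genes passed (0%). At an unadjusted p under 0.05 the count was 3 of the 8, Plin4, Sgk1 and Tsc22d3, all higher, against 9.28% of all genes in either direction and 2.86% higher. These are the values that were in view when the genes were named, and Plin4 passed the filter only through the intervention libraries. In FPKM, libraries did not overlap for 4 higher genes and 1 lower gene of the 8, against 5.07% higher and 8.16% lower over all genes. Among these, Errfi1 and Nr3c1 overlapped after rescaling to TPM. In intervention against control libraries Plin4 and Fkbp5 were higher and Nr3c1 and Errfi1 lower, against 28.3% of all genes. The same 4 genes made up the counts at an unadjusted p under 0.05 (40.8% of all genes) and of libraries that did not overlap in FPKM (44.1%). That count was 2 without control 1, when Fkbp5 and Errfi1 no longer passed. Fkbp5 was also lost after rescaling to TPM, with quantile normalization and without control 2, intervention 2 or intervention 3. Errfi1 was also lost without a filter, in a fit of only 2 groups and without intervention 1. The comparisons share groups, so that their values for a gene are not independent of each other.

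**Figure D2:**
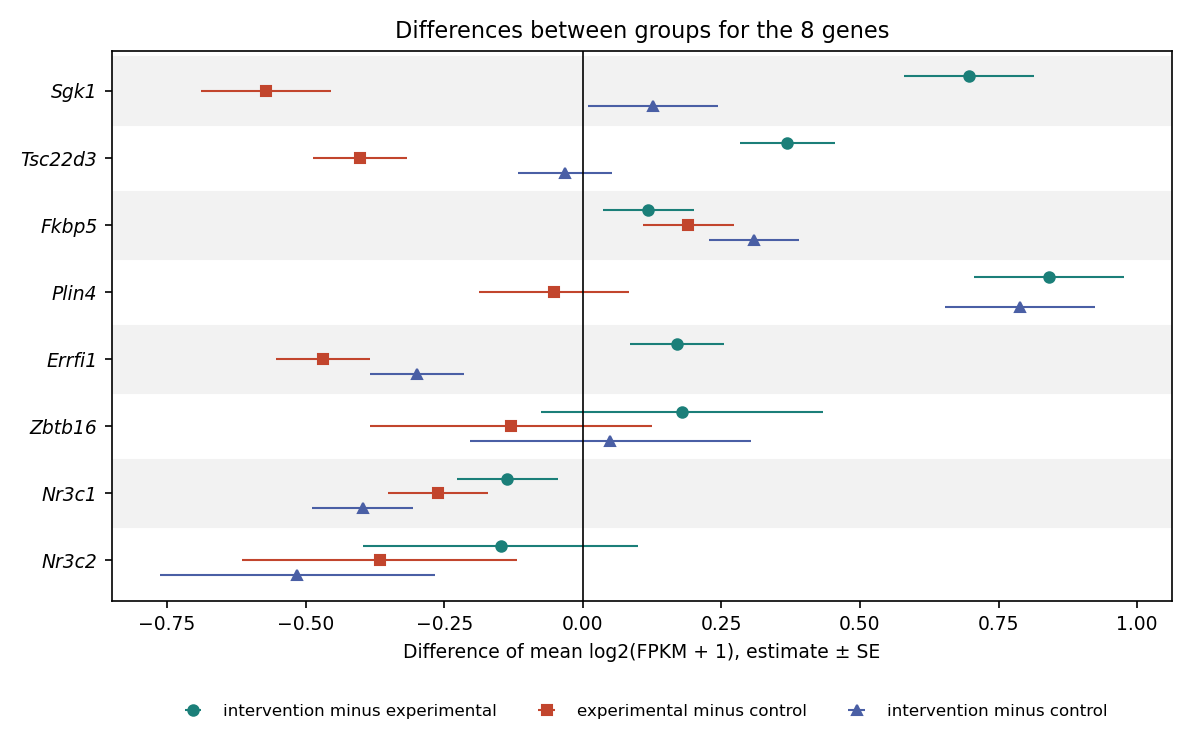
Difference of mean log2(FPKM + 1) for each gene (horizontal axis, estimate ± SE) in the 3 comparisons, which share groups. For intervention minus experimental, Plin4 (0.84) and Sgk1 (0.70) lie farthest to the right.

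The order of mean levels was the same in each group. Sgk1 was followed by Tsc22d3, Nr3c1, Errfi1, Nr3c2, Fkbp5, Zbtb16 and Plin4 in FPKM, a level per length, in intervention, experimental and control libraries alike. The neighbours Errfi1 and Nr3c2 overlapped in every group, and Nr3c2 with Fkbp5 and Zbtb16 with Plin4 overlapped in intervention libraries only.

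Within groups, the genes varied together to different degrees. Deviations from the group mean over the 9 libraries gave a Pearson r of 0.86 between Nr3c2 and Zbtb16, 0.82 between Nr3c2 and Tsc22d3 and 0.59 between Sgk1 and Tsc22d3. Control 1, experimental 1 and intervention 3 were the highest library of their group for both Nr3c2 and Zbtb16. Deviations over all tested genes also correlated between these libraries. The r was 0.209 for control 1 with experimental 1, 0.18 for control 1 with intervention 3 and 0.42 for experimental 1 with intervention 3. Such values were not particular to these libraries. Control 2, not the highest control library for Nr3c2 or Zbtb16, had an r of 0.40 with experimental 1 and 0.426 with intervention 3. Fkbp5 and Sgk1 had an r of -0.05. These values are a description of 9 libraries that share 3 group means.

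**Figure D3:**
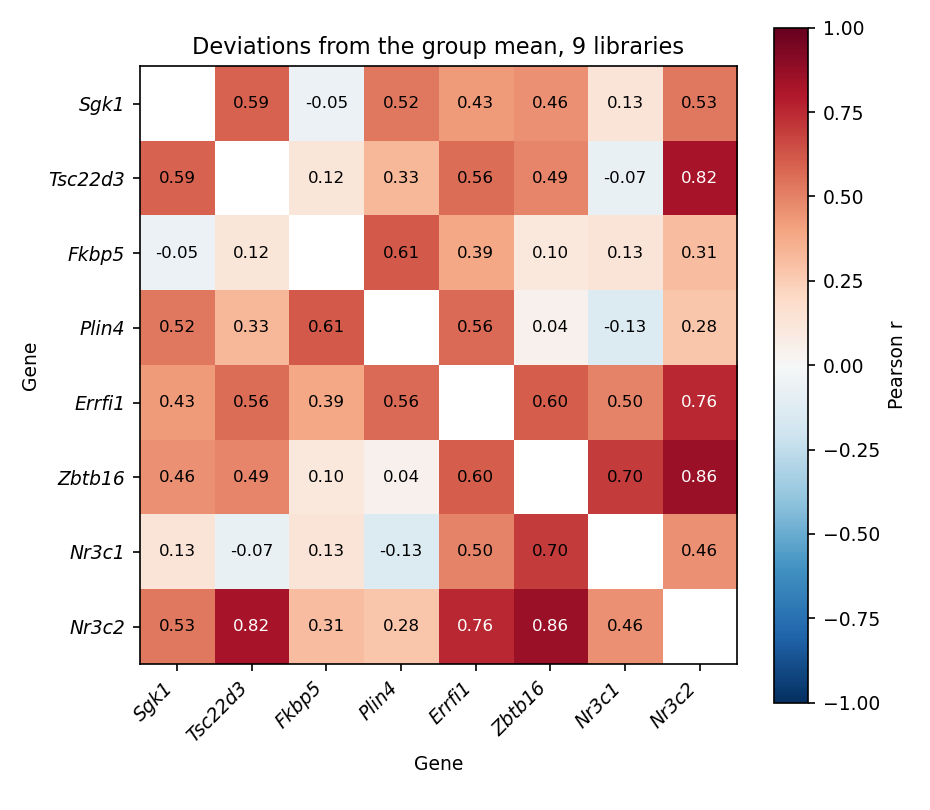
Pearson r between genes (rows and columns) of the deviations of log2(FPKM + 1) from the group mean, over 9 libraries, on a colour scale from -1 to 1. The highest values belong to Nr3c2 with Zbtb16 (0.86) and with Tsc22d3 (0.82).

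The genes most like each of the 8 were sought among 12322 tested genes by Pearson r of log2(FPKM + 1) over the 9 libraries, leaving out predicted genes. For Sgk1 they were Arrdc2 (r = 0.95), an arrestin domain gene that glucocorticoids are also known to induce, Pip4k2a (0.92), a phosphoinositide kinase, Map7 (0.91), a microtubule-binding protein, Kcng4 (0.91), a potassium channel subunit, and Kyat1 (0.91), a kynurenine aminotransferase. Arrdc2 was also the second closest to Tsc22d3 (0.93), after the phosphatase gene Dusp10 (0.93) and before Rilpl1 (0.93). For Plin4 the closest was Etnppl (0.95), an astrocyte enzyme that breaks down phosphoethanolamine, with means of 8.89 FPKM in intervention and 4.82 FPKM in experimental libraries, against 4.95 FPKM in control libraries. It was followed by the entry Mir3060 (0.91), Adi1 (0.88), Plaat3 (0.88) and Slc25a47 (0.87). For Fkbp5 they were Fgfr3, Neurl2 and Chpt1 (0.94 to 0.91), for Errfi1 Klhdc2, Serinc1 and Plcxd2 (0.99 to 0.98), for Nr3c1 Kif3b, Zfp874a and Usf3 (0.96), and for Nr3c2 Orai2, Sipa1l3 and Dgkd (0.98 to 0.96). For Zbtb16 they were Ptprk, Mtdh, Ccl21a, Cdh12 and Arhgap39 (0.91 to 0.86), and reads of Ccl21a may be shared with near-identical copies. With group means removed, the r of Sgk1 was 0.73 with Arrdc2 and 0.92 with Pip4k2a, and that of Plin4 with Etnppl was 0.60.

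A list of 24 other glucocorticoid-induced genes moved in both directions against control. Of 22 tested, 11 rose and 5 fell in experimental against control libraries, with a median difference of 0.21 beside -0.03 over all genes, and 9 rose and 8 fell after rescaling to TPM. Among those that rose, the cell cycle inhibitor Cdkn1a averaged 8.12 ± 0.389 FPKM in experimental libraries and 3.07 ± 0.0221 FPKM in control libraries (SD, n = 3 each, difference 1.16 ± 0.07, limma adjusted p = 1.79e-06). The transcription factor Cebpd averaged 8.96 ± 0.865 FPKM in experimental libraries and 1.69 ± 0.267 FPKM in control libraries (1.89 ± 0.13, limma adjusted p = 4.30e-06). Angptl4, a lipase inhibitor, and Mertk, a phagocytic receptor, rose by 1.20 ± 0.11 and 1.07 ± 0.10. The metallothioneins Mt1 and Mt2 rose by 1.38 ± 0.15 and 1.88 ± 0.20, and they and the genes in the next sentence were picked after their values were known. Lower in experimental libraries were the clock gene Per1 (-0.63 ± 0.12), the phosphatase gene Dusp1 (-0.83 ± 0.13), the small GTPase gene Arl4d (-1.07 ± 0.20) and Arrdc2 (-0.52 ± 0.13), with limma adjusted p from 0.000904 to 0.00978.

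In intervention against control libraries 12 of the 22 rose and 3 fell, with a median of 0.33 beside -0.00348 over all genes, and 10 rose and 5 fell after rescaling to TPM. The same 4 leading genes were higher, with differences of 0.95 ± 0.07 for Cdkn1a, 1.57 ± 0.13 for Cebpd, 1.11 ± 0.11 for Angptl4 and 0.96 ± 0.10 for Mertk. Per1, Dusp1 and Arl4d were the 3 that fell, the last of them lost without control 1, control 2, experimental 1, experimental 3, intervention 1 or intervention 2, and Arrdc2 did not pass (0.15 ± 0.13, limma adjusted p = 0.419).

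In intervention against experimental libraries 0 of the 22 passed. At an unadjusted p under 0.05, 5 had higher and 3 lower estimates, and the median was 0.06 beside 0.01 over all genes. Libraries did not overlap for 3 higher genes, which are named because the count is small, and for Cdkn1a and Anxa1, which were lower. Arrdc2 was at 7.20, 5.12 and 7.66 FPKM in intervention and 3.997, 3.67 and 3.66 FPKM in experimental libraries (0.67 ± 0.13, limma adjusted p = 0.0937). Sult1a1, a sulfotransferase, was at 9.02, 8.44 and 7.28 FPKM in intervention and 5.34, 4.74 and 5.20 FPKM in experimental libraries (0.60 ± 0.12, limma adjusted p = 0.107). Klf15, a transcription factor, was at 9.65, 9.32 and 10.2 FPKM in intervention and 7.98, 8.80 and 7.56 FPKM in experimental libraries (0.24 ± 0.07, limma adjusted p = 0.269). The differences of Mt1 and Mt2 were 0.03 ± 0.15 and -0.07 ± 0.20. Hif3a lay under the filter, at 1.30 FPKM in intervention and 0.793 FPKM in experimental libraries on average (two-sided exact permutation p = 0.1, the smallest that 3 against 3 allow), and the decoy receptor gene Il1r2 at 0.307 and 0.779 FPKM (exact p = 0.1).

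**Figure D4:**
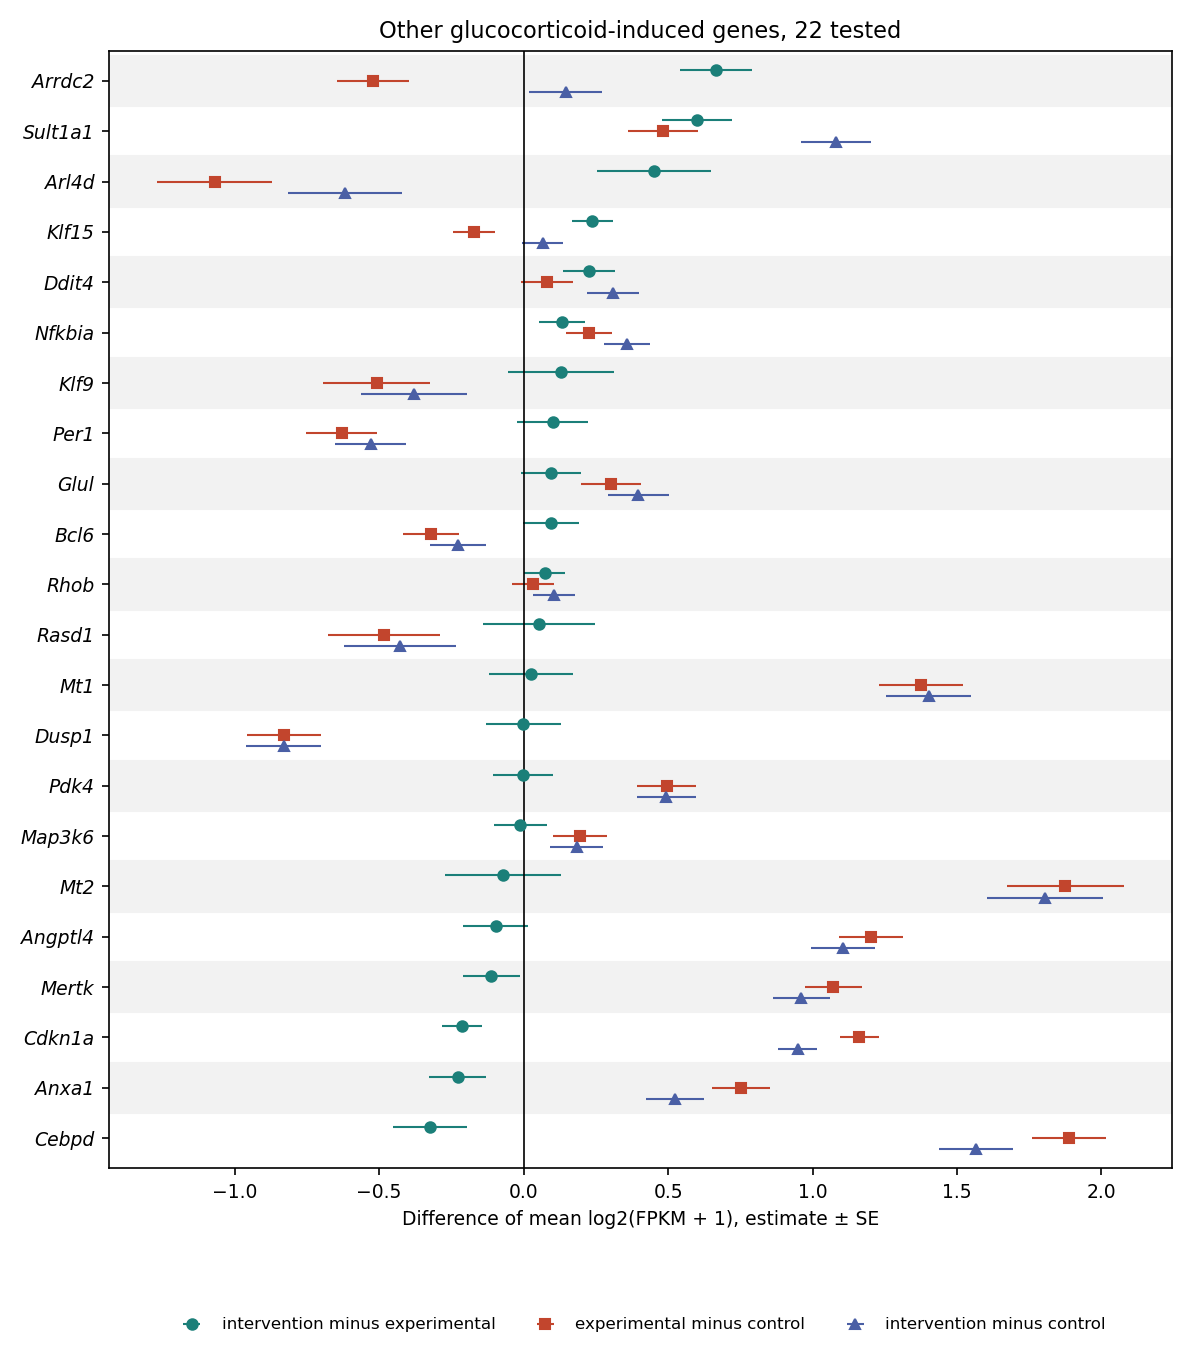
Difference of mean log2(FPKM + 1) (horizontal axis, estimate ± SE) for the 22 tested genes of the list in the 3 comparisons, ordered by intervention minus experimental. Arrdc2 (0.67) and Sult1a1 (0.60) head the order and Cebpd (-0.32) ends it, and none of these 3 passed the threshold in that comparison.

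Genes of the receptor complex fell against control. Of 18 chaperones and cofactors, 10 fell and 0 rose in experimental against control libraries, with a median of -0.24. The chaperone Hsp90aa1 averaged 167.3 ± 8.63 FPKM in experimental libraries, against 230.9 ± 11.2 FPKM in control libraries (-0.46 ± 0.07, limma adjusted p = 0.00110). Fkbp4, a co-chaperone known to oppose Fkbp5 at the receptor, averaged 33.5 ± 2.68 FPKM in experimental libraries, against 44.5 ± 0.196 FPKM in control libraries (-0.40 ± 0.08, limma adjusted p = 0.00301). Hspa8 (-0.36 ± 0.07) and the organising protein gene Stip1 (-0.53 ± 0.11) fell as well. The count was 5 without control 1, control 3 or experimental 1. In intervention against control libraries 5 fell, 13 after rescaling to TPM, 8 with quantile normalization and 1 without control 1, 2 without control 3 or intervention 1 and 3 without control 2 or experimental 3. In intervention against experimental libraries 0 passed, and the median was -0.01. Of 8 neuron markers, 7 fell in both comparisons with control, and their part in these levels was not tested.

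Of 5 tested genes that set the local supply of steroid, 4 rose in experimental against control libraries. H6pd, which supplies the cofactor for the enzyme that reactivates corticosterone, averaged 3.60 ± 0.263 FPKM in experimental libraries, against 1.40 ± 0.0715 FPKM in control libraries (0.93 ± 0.08, limma adjusted p = 1.75e-05). The efflux pump Abcb1a of vessel walls rose by 0.70 ± 0.08 and its relative Abcb1b by 0.55 ± 0.10. The steroid reductase Srd5a1 rose by 0.47 ± 0.16 (limma adjusted p = 0.0467) and was lost after rescaling to TPM, with quantile normalization and without control 2, control 3, intervention 3 or any experimental library. Hsd11b1, the reactivating enzyme, averaged 4.26 ± 1.51 FPKM in experimental libraries, against 3.86 ± 0.899 FPKM in control libraries (0.09 ± 0.21). Hsd11b2, which inactivates corticosterone, was under 0.1 FPKM in all 9 libraries. In intervention against control libraries 4 of the 5 rose, 3 after rescaling to TPM. In intervention against experimental libraries 0 passed. Libraries did not overlap there for H6pd (-0.27 ± 0.08) and Abcb1a (-0.27 ± 0.08), both lower, against 8.16% of all genes lower. All 8 endothelial markers rose in experimental against control libraries, and their part in these levels was not tested.

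Relatives and partners of the 8 genes are given next for experimental against control libraries, and 0 of them passed in intervention against experimental libraries. Sgk2 and Sgk3, the other kinases of the family, were at 1.21 ± 0.114 and 1.78 ± 0.225 FPKM in experimental libraries, against 1.03 ± 0.0886 and 1.19 ± 0.0405 FPKM in control libraries. Sgk3 rose by 0.34 ± 0.08 (limma adjusted p = 0.0116), a call lost after rescaling to TPM and with quantile normalization, and Sgk2 did not pass. Of 15 genes around the kinase, 2 rose and 2 fell, and after rescaling to TPM 0 rose and 5 fell. Those that fell were Pdpk1, the kinase that activates Sgk1 (-0.40 ± 0.07), and Gsk3b (-0.37 ± 0.08), and Ndrg2 was the other that rose (0.35 ± 0.09), a call lost after rescaling to TPM and without control 2 or experimental 2.

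In the family of Tsc22d3, Tsc22d1 (-0.30 ± 0.08) and Tsc22d2 (-0.22 ± 0.06) fell and Tsc22d4 rose (0.67 ± 0.11) in experimental against control libraries, and Tsc22d2 was lost without control 2, control 3 or experimental 2. Of 6 relatives of Fkbp5, Fkbp10 rose (1.44 ± 0.09) and Fkbp3 (-0.36 ± 0.08) and Fkbp4 fell. Of 6 genes related to Zbtb16, 4 fell and 1 rose, among them Zbtb7a (-0.49 ± 0.11) and Cul3 (-0.32 ± 0.07), a ubiquitin ligase scaffold. The one that rose, Zbtb20, was lost after rescaling to TPM and with quantile normalization, and the count of 5 was 2 without control 1 and 3 without control 2, experimental 2 or experimental 3.

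Of 6 tested lipid droplet genes other than Plin4, 3 rose and 1 fell in experimental against control libraries. Plin2, the perilipin of most cell types, was at 16.1, 16.5 and 13.5 FPKM in intervention and 18.9, 21.0 and 20.6 FPKM in experimental libraries, against 1.51, 1.53 and 1.55 FPKM in control libraries. It was higher in experimental than in control libraries (3.06 ± 0.08, limma adjusted p = 6.56e-08) and in intervention than in control libraries (2.69 ± 0.08), and did not pass between intervention and experimental libraries (-0.37 ± 0.08, limma adjusted p = 0.134). Plin3 and the lipase gene Pnpla2 rose in experimental against control libraries as well (0.52 ± 0.13 and 0.47 ± 0.08), and Dgat2 fell (-0.32 ± 0.10), a call lost with quantile normalization. Plin1 was under 0.1 FPKM in all 9 libraries.

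The next 5 tested genes cover the receptor that Errfi1 inhibits, its ligands and related receptors. The ligand gene Hbegf rose in experimental against control libraries (4.94 ± 0.783 and 1.91 ± 0.222 FPKM, 1.02 ± 0.13, limma adjusted p = 0.000326). In the same comparison the related receptor gene Erbb4 fell (-0.55 ± 0.11) and Egfr rose (0.29 ± 0.09). The call of Egfr was lost after rescaling to TPM, with quantile normalization and without experimental 2, experimental 3 or any control library.

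Markers of cell types moved between the same groups. All 8 microglia markers rose in experimental against control libraries, with summed levels of 478.2 to 608.3 FPKM in intervention and 574.7 to 704.7 FPKM in experimental libraries, against 125.9 to 145.1 FPKM in control libraries. All 8 endothelial markers rose, at 118.1 to 132.0 FPKM in intervention and 142.4 to 170.2 FPKM in experimental libraries, against 69.5 to 75.0 FPKM in control libraries. Summed neuron markers were at 585.2 to 647.0 FPKM in intervention and 522.1 to 618.3 FPKM in experimental libraries, against 817.9 to 910.0 FPKM in control libraries. Of 8 astrocyte markers 6 rose, of 10 mature oligodendrocyte markers 2, of 8 mural cell markers 5, of 6 precursor markers 4 and of 7 tested monocyte markers 7. In intervention against experimental libraries 0 markers of any list passed. At an unadjusted p under 0.05, 6 of 8 endothelial and 6 of 7 monocyte markers had lower estimates. So did 3 of 8 microglia, 3 of 8 mural cell and 1 of 3 tested neutrophil markers. Higher estimates were found for 1 mature oligodendrocyte, 1 astrocyte and 1 neuron marker. Over all genes tested the share was 9.28% in either direction and 2.86% higher. Of the neutrophil markers 3 of 8 were tested, and Ly6g was under 0.1 FPKM in every library. Of the 3 tested, 2 rose in experimental and 1 in intervention against control libraries. One of the former, S100a8, overlapped between experimental and control libraries.

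Summed markers of mature oligodendrocytes, a cell type known to express Sgk1, were at 2287, 1418 and 2092 FPKM in intervention and 1582, 1566 and 1783 FPKM in experimental libraries, against 1458, 1227 and 1204 FPKM in control libraries. In FPKM, experimental libraries had higher sums than control libraries and lower Sgk1. After rescaling to TPM the sums of experimental and control libraries overlapped. Of the 10 markers 1 rose and 1 fell after that rescaling, with a median difference of 0.07 against 0.23 before. Intervention 2 had the lowest sum and the lowest Sgk1 of its group, at 31.1 FPKM. Control 1 and experimental 3 each had the highest sum and the highest Sgk1 of their group. In the intervention group the highest sum was that of intervention 1 and the highest Sgk1 that of intervention 3. Choroid plexus markers ranged from 264.5 to 1337 FPKM in intervention and 349.0 to 864.8 FPKM in experimental libraries, against 389.6 to 1035 FPKM in control libraries, with 0 of 8 called in any comparison. Intervention 3, with the highest choroid plexus sum, had the highest Sgk1. Control 1 likewise had the highest sum and the highest Sgk1 of its group. In the experimental group the highest sum was that of experimental 2 and the highest Sgk1 that of experimental 3. Without intervention 3 the difference of Sgk1 between intervention and experimental libraries was 0.59. The part of these cell types in the levels of Sgk1 was not tested.

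**Figure D5:**
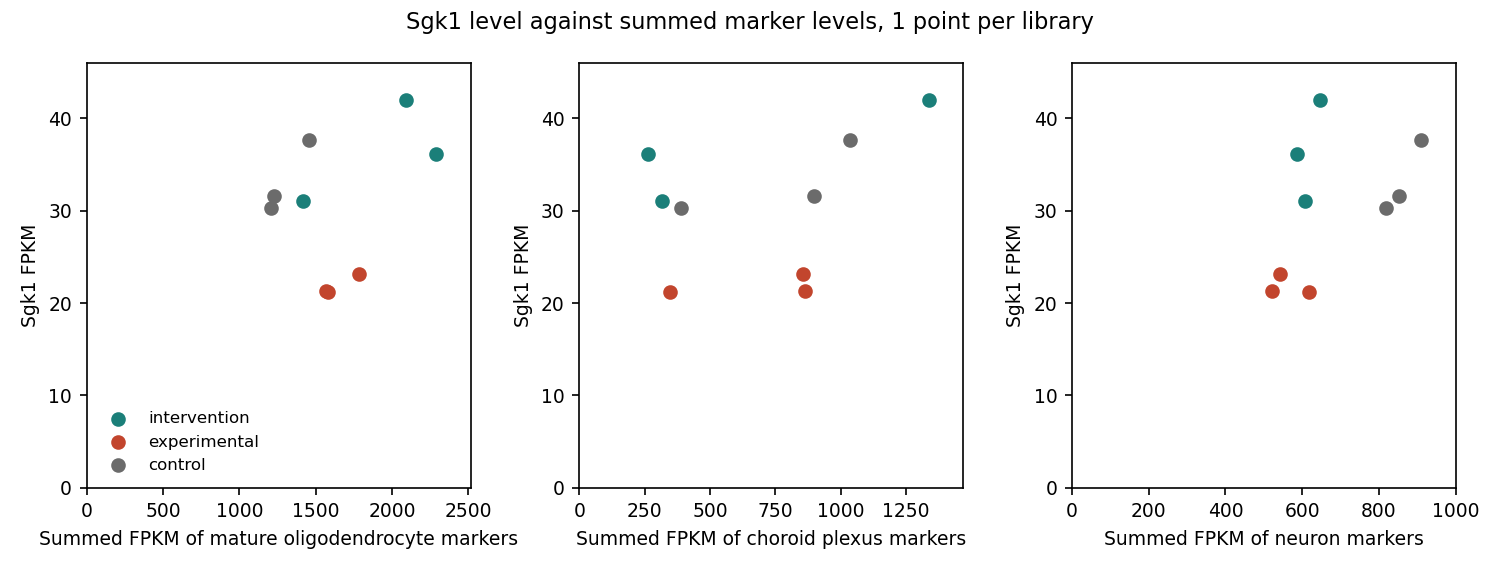
Sgk1 FPKM (vertical axis, from 0) against the summed FPKM of markers of mature oligodendrocytes, choroid plexus and neurons (horizontal axes), with a point per library in intervention, experimental and control groups. The 3 experimental libraries lie lowest for Sgk1 at 21.2 to 23.2 FPKM while their oligodendrocyte sums, 1566 to 1783 FPKM, lie above those of the control libraries. After rescaling to TPM, which is not drawn, these sums overlapped with those of the control libraries.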

How the data were processed

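Per the labels' protocols, RNA was taken from mouse brain tissue next to a haematoma, prepared with RNeasy and SMARTer kits and sequenced on a NovaSeq. Whether the control tissue also lay next to a haematoma is not known. The authors deposited 1 table of FPKM values for 9 libraries, with mm10 as the genome build per the submitters' processing notes. For the aligner, quantifier, annotation and use of strand, the labels name none, and read counts cannot be had from FPKM, so that no counting error is given. Groups and replicate numbers came from the labels.

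Of 33586 entries, the 14570 with at least 1 FPKM in at least 3 libraries were tested on log2(FPKM + 1) with limma 3.58.1 in R 4.3.3, with an intensity trend, a mean for each of the 3 groups and Benjamini-Hochberg adjustment over all genes at 0.05. The added 1 makes the differences of low genes smaller. The fit was checked on simulated data. Entries under the filter were compared with a two-sided exact permutation test. The replicate numbers were not used to pair libraries, since deviations of same-numbered libraries correlated between -0.54 and 0.21. Correlations across the 9 libraries are descriptions.

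The 8 genes and all lists were chosen with earlier results of these data known. Text names all 8 genes, up to 4 genes per list with the smallest adjusted p (in a list of up to 8 any gene could be named), and the 3 or 5 genes most like each; others are named as chosen by their values. Promoter sequences came from RefSeq (GRCm38.p6) and positions from GENCODE M21. Protein sequences were not used here. Alternatives were a pseudocount of 0.1, no filter, a filter of 0.1 FPKM, rescaling to TPM, quantile normalization, a replicate block, a fit of 2 groups, no trend and leaving out each library.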

Additional observations from a re-analysis of the deposited data

How the results depend on the processing

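The 8 genes kept the direction of their differences in most alternatives. For intervention minus control, Sgk1 was -0.0221 after rescaling to TPM, and Zbtb16 was -0.0722 after rescaling to TPM and -0.0485 with quantile normalization. With each library left out in turn, experimental minus control ranged from -0.166 to 0.018 for Plin4 and from -0.353 to 0.0757 for Zbtb16. Intervention minus experimental ranged from -0.389 to 0.0731 for Nr3c2 and from -0.0259 to 0.402 for Zbtb16, and intervention minus control from -0.0842 to 0.0224 for Tsc22d3 and from -0.135 to 0.234 for Zbtb16. The cause was not tested. In experimental against control libraries 3 to 4 of the 8 genes, 39 to 50 of the list genes and 4292 to 5486 genes in all were called in these runs. In intervention against control libraries the counts were 2 to 4, 25 to 38 and 2668 to 3950. In intervention against experimental libraries 0 to 1 gene of the whole table was called in these runs. The count was 1 with quantile normalization and 8 without the intensity trend. None of these was among the 8 genes or the list genes, a count that leaves out the markers of cell types. With the replicate block, which the numbers do not warrant, 4702, 0 and 3251 genes were called in experimental against control, intervention against experimental and intervention against control libraries, and 3, 0 and 3 of the 8. Nr3c1 in experimental against control libraries was lost without a filter, with a filter of 0.1 FPKM, with quantile normalization, with the block and without the trend. With the block Errfi1 in intervention against control libraries was lost too. Low values such as those of Plin4 rest on an unknown number of reads.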
